A study of Homo sapiens with 6 samples.

Results

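The genes that write, read and erase N6-methyladenosine (m6A) were described in HEK293, a long-established line of human embryonic kidney origin, after treatment with Quinolinol B23 or with the solvent DMSO as control. Polyadenylated RNA was sequenced in 3 B23 libraries and 3 DMSO libraries, all from cells of this line grown in RPMI medium with serum and with no other agent named, and neither the dose nor the time of treatment is given in the sources used here. The genes were taken by symbol from the deposited table of CPM (read counts scaled by library size, possibly with a further factor of unknown method). All 10 were found among its 15496 genes: METTL3, METTL14, WTAP, CBLL1, ZC3H13, YTHDF1, YTHDF2, YTHDF3, ALKBH5 and FTO. Nothing in the labels says that the libraries of a group came from separate cultures, so the error behind each p-value is that between libraries alone and could be technical.

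m6A is the most common internal mark of messenger RNA. It is placed in the nucleus by a complex in which METTL3 is the catalytic subunit and METTL14 its RNA-binding partner, while WTAP, the zinc finger protein ZC3H13 and CBLL1 (HAKAI) belong to the adaptor part that positions the enzyme. The cytoplasmic proteins YTHDF1, YTHDF2 and YTHDF3 bind the mark, and YTHDF2 is best known for bringing the CCR4-NOT deadenylase to marked transcripts. ALKBH5 and FTO are iron- and 2-oxoglutarate-dependent dioxygenases that remove the mark.

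B23-treated cells had less YTHDF2 and METTL3 RNA and more RNA of the adaptor genes CBLL1 and ZC3H13. YTHDF2 was 2.27-fold lower and METTL3 was 1.703-fold lower in B23 than in DMSO by mean CPM, CBLL1 was 1.298-fold higher and ZC3H13 was 1.285-fold higher. Of the 10 genes, 4 rose (METTL14, CBLL1, ZC3H13 and ALKBH5), 4 fell (METTL3, YTHDF1, YTHDF2 and FTO), and WTAP and YTHDF3 did not pass the test. The test was limma on log2(CPM + 0.5), with Benjamini-Hochberg adjustment over the 14792 genes whose mean reached 1 CPM and a threshold of 0.05. In that test 88.6% of all genes were called, 39.6% higher and 49.0% lower, so a count of 8 called among 10 is close to the background. The values of the groups did not overlap for the same 8 genes, against 88.9% of all genes. Calls of at least 1.5-fold in either direction covered 49.4% of all genes and included METTL3 and YTHDF2 of the 10. YTHDF2 was also among the 15.8% of tested genes that were called at least 2-fold lower, and its log2 difference lay at percentile 12.0 of all tested genes. The median log2 difference was 0.014 over the 10 genes and -0.10 over all tested genes.

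**Figure D1:**
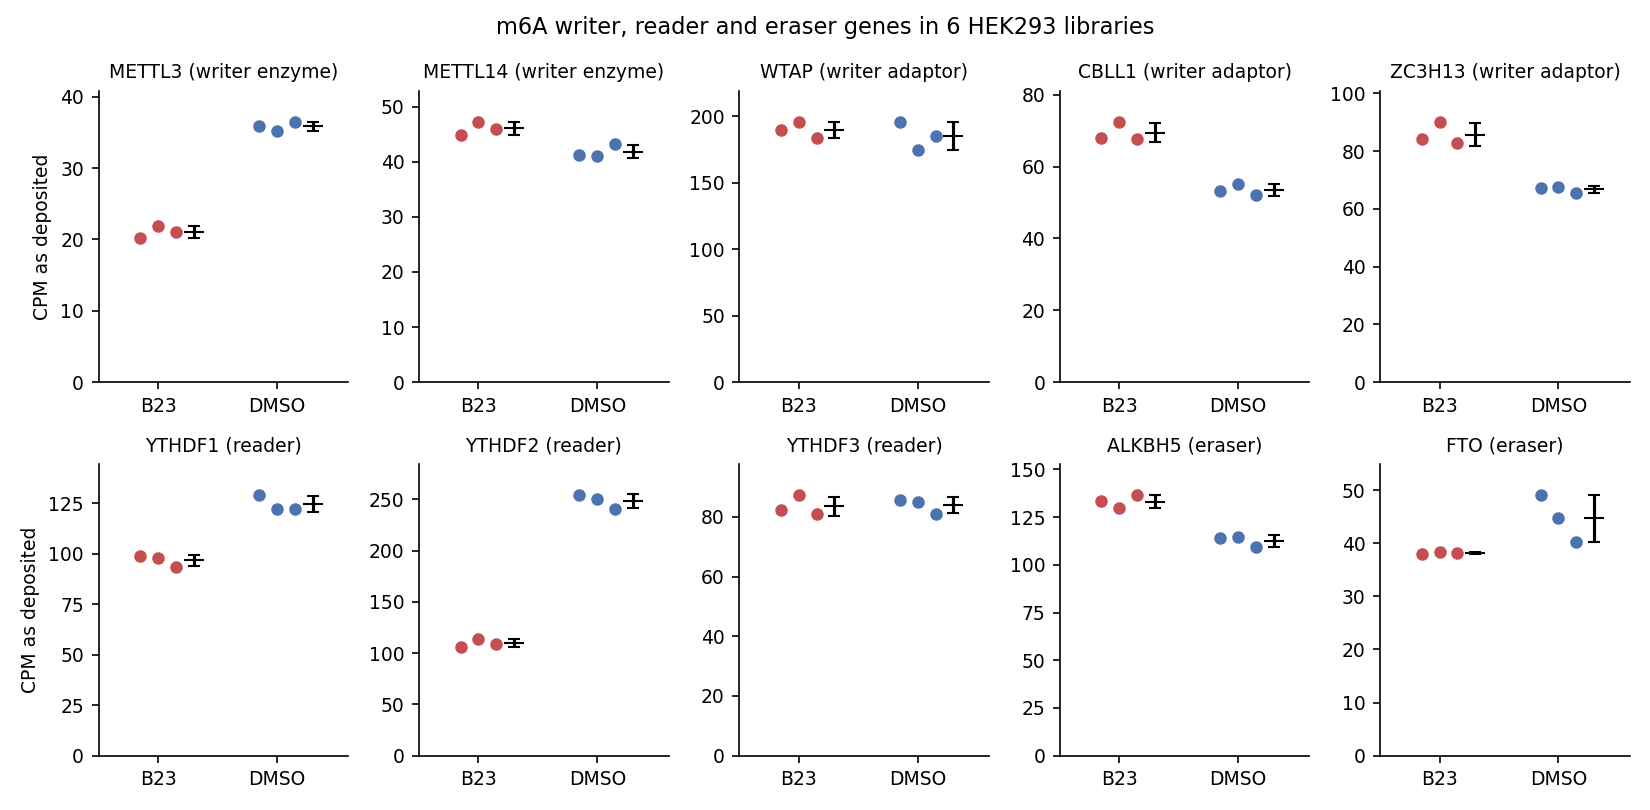
CPM as deposited (linear axes from 0) of each of the 10 genes in the 3 B23 and 3 DMSO libraries, 1 point per library, with the mean and SD of the group beside the points. YTHDF2 lies between 106.1 and 113.9 CPM in B23 and between 240.9 and 254.1 CPM in DMSO, while the values of WTAP and of YTHDF3 overlap between groups.

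The libraries were deep and alike within groups. Whole reads recovered from the CPM numbered 40950318 to 45319519 per B23 library and 45732612 to 47444126 per DMSO library in the listed genes, and the 10 genes had 1005 (METTL3 in B23) to 16047 (YTHDF2 in DMSO) reads per library. Log2 values of replicates correlated across genes with r of 0.998 to 0.999, although genes are not independent replicates. Summed CPM over the table came to 890367 to 900113 in B23 and 745216 to 753745 in DMSO, so the choice of scaling matters. Where scaling turns the direction of a named gene, ends its call or moves its difference by more than 1.5 times, an example is given with the gene. Not every such scaling is listed there. All 9 genes set as HEK293 markers were listed, summing to 1471 to 1549 CPM in B23 and 1017 to 1061 CPM in DMSO. VIM, KRT8, KRT18 and LIN28B were higher in every B23 library than in any DMSO library, the ranges of CDH2 overlapped, and PAX2, SALL1, NEFL and NEFM were lower in every B23 library. VIM spanned 685.0 to 718.8 CPM in B23 and 366.3 to 396.7 CPM in DMSO, whereas PAX2 spanned 1.15 to 1.53 CPM in B23 and 5.29 to 6.65 CPM in DMSO. The list set as markers of other cell types had 0 of 9 genes in the table. In a bulk library a change in RNA per cell and a change in the share of cells that express a gene cannot be told apart.

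The stretch before the start site was read for the members with an entry in RefSeq's promoter table (GRCh38.p14), 9 of the 10 genes with 11 start sites. It was searched on both strands for the core of the hypoxia response element, ACGTG or GCGTG, and for the E-box CACGTG, which contains the first core, in the 250 bases before each start site. The first motif is shown because ALKBH5 has been described as a target of the hypoxia-inducible factor in other human cells, and the second is bound by MYC family factors. A core was found in 8 of the 11 windows, against 43.2% of 35116 windows of the table. By gene, 7 of the 9 had a core in any of their windows, and no such share was counted over all genes. The E-box was found in 1 of the 11 windows, that of YTHDF1, against 6.34% of all windows. The sequences of 3 genes are printed 5′ to 3′ with the cores in capitals, as bases outside the exons annotated by GENCODE release 29: ALKBH5, which rose, and METTL3 and YTHDF2, which fell the most.
ALKBH5 (chr17:18183578-18183827, plus strand): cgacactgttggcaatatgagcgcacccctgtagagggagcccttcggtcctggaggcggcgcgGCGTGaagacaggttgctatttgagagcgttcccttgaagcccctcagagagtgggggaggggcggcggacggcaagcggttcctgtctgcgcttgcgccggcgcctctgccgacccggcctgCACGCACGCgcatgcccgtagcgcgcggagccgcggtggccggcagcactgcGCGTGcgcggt
METTL3 (chr14:21511376-21511590, minus strand): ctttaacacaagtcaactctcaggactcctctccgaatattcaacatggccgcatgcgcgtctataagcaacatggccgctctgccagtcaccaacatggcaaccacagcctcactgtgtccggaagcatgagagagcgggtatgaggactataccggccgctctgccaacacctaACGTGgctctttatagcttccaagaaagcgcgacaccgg
YTHDF2 (chr1:28736374-28736620, plus strand): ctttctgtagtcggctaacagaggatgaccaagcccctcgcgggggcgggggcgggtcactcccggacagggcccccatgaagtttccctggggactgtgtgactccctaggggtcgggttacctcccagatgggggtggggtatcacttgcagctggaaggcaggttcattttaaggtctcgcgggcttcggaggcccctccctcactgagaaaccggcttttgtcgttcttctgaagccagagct
ALKBH5 held 4 cores, METTL3 held 1, and the printed window of YTHDF2 held 0, while its second start site had 1. Among the windows not printed, that of YTHDF1, which fell, held 5. Those of METTL14, which rose, and of FTO, which fell, held 0. CBLL1 and ZC3H13, which rose, held 1 each, and the windows of WTAP, which was not called, held 2 and 1. The ALKBH5 window lies inside the gene as annotated by GENCODE release 29, which begins at 18183078. Other windows were largely exonic there, with 250 bases in CBLL1, 226 in FTO and 223 in METTL14. Exonic bases were not counted for the windows of the whole table. A match describes these letters and was not tested as a binding site.

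The catalytic pair of the writer complex moved apart. METTL3, the subunit that transfers the methyl group, had 20.2, 21.9 and 21.1 CPM in the B23 libraries, against 35.8, 35.2 and 36.5 CPM in the DMSO libraries. Every B23 value lay below every DMSO value, with a gap of 13.3 CPM between the groups. METTL3 averaged 21.0 ± 0.821 CPM in B23 and 35.8 ± 0.661 CPM in DMSO (SD, n = 3 each), a log2 difference of -0.75 (SE 0.044, limma adjusted p = 5.16e-14). METTL3 has up to 11 exons in a transcript, and coding genes with 11 or more exons had a median log2 difference of 0.13 over 5972 tested genes. The gene lies on chromosome 14 from 21498133 to 21511375 on the minus strand of GRCh38. It shares 388 exonic bases, 6.58% of its exonic length, with TOX4 on the opposite strand, which stood at 59.5 ± 0.0755 CPM in B23 and 40.2 ± 0.955 CPM in DMSO. Because the strand setting of the counting is not given, the share of such reads in METTL3 was not tested.

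METTL14, which does not catalyse the transfer itself but holds the RNA substrate, had 44.9, 47.2 and 46.0 CPM in B23 and 41.2, 41.01 and 43.2 CPM in DMSO. The groups did not overlap, but only 1.698 CPM lay between them. Its means were 46.1 ± 1.161 CPM in B23 and 41.8 ± 1.224 CPM in DMSO (SD, n = 3 each). The log2 difference was 0.14 (SE 0.039, limma adjusted p = 0.00233), and it turned to -0.11 when libraries were scaled to the same total of the listed genes. It was 0.25 with median-of-ratios scaling, and 0.046 and not called with quantile normalization. METTL14 lies on chromosome 4 from 118685368 to 118715433 on the plus strand.

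The ratio of METTL3 to METTL14 within a library does not change when a library is scaled by 1 factor. It was 0.450, 0.462 and 0.458 in B23 and 0.869, 0.858 and 0.844 in DMSO, as CPM over CPM and therefore not per length, so that its change and not its level can be read. On the log2 scale the ratio differed by -0.91 between B23 and DMSO, while the larger SD within a group was 0.021. With quantile normalization, which acts on each rank and was added here after the data were seen, the difference was -0.72. The exact two-sided permutation test gave p = 0.10, the smallest that 3 against 3 libraries allow, and 0.10 adjusted over the 5 ratios compared.

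Of the adaptor genes, CBLL1 and ZC3H13 rose by similar amounts and WTAP was not called. CBLL1, a RING finger protein first described as a ubiquitin ligase for E-cadherin, had 68.0, 72.5 and 67.6 CPM in B23 and 53.1, 55.3 and 52.0 CPM in DMSO. The lowest B23 library stood 12.4 CPM above the highest DMSO library. Its log2 difference was 0.37 (SE 0.039, limma adjusted p = 2.65e-09), and it was smaller but still called with listed-gene total scaling (0.12) and quantile normalization (0.19). CBLL1 lies on chromosome 7 from 107743697 to 107761667 on the plus strand, and shares 333 exonic bases, 6.08% of its exonic length, with the antisense gene AC002467.1, which stood at 0.955 ± 0.224 CPM in B23 and 3.47 ± 0.0248 CPM in DMSO.

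ZC3H13, which keeps the complex in the nucleus in mouse embryonic stem cells, had 84.1, 90.1 and 82.8 CPM in B23 and 67.0, 67.5 and 65.5 CPM in DMSO. Again no B23 value reached down to a DMSO value, and the gap was 15.3 CPM. The log2 difference was 0.36 (SE 0.037, limma adjusted p = 2.92e-09), and 0.11 with either listed-gene total scaling or quantile normalization, called in both. ZC3H13 lies on chromosome 13 from 45954465 to 46052759 on the minus strand and has up to 19 exons in a transcript, the most of the 10 genes.

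WTAP, the adaptor that brings the enzyme pair to nuclear speckles, had 189.8, 195.9 and 183.8 CPM in B23 and 196.0, 175.0 and 185.2 CPM in DMSO. The DMSO values enclosed those of B23 on both sides. The log2 difference was 0.035 with a 95% interval of -0.046 to 0.115 (limma adjusted p = 0.401), which holds no change as large as that of CBLL1 or ZC3H13. Its call and direction depended on the scaling, with 0.14 under median-of-ratios scaling and -0.48 under quantile normalization. WTAP lies on chromosome 6 from 159725585 to 159756319 on the plus strand and shares 437 exonic bases, 6.81% of its exonic length, with the 2 annotated genes named SOD2 on the opposite strand, a symbol listed at 150.6 ± 1.36 CPM in B23 and 141.3 ± 2.04 CPM in DMSO.

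**Figure D2:**
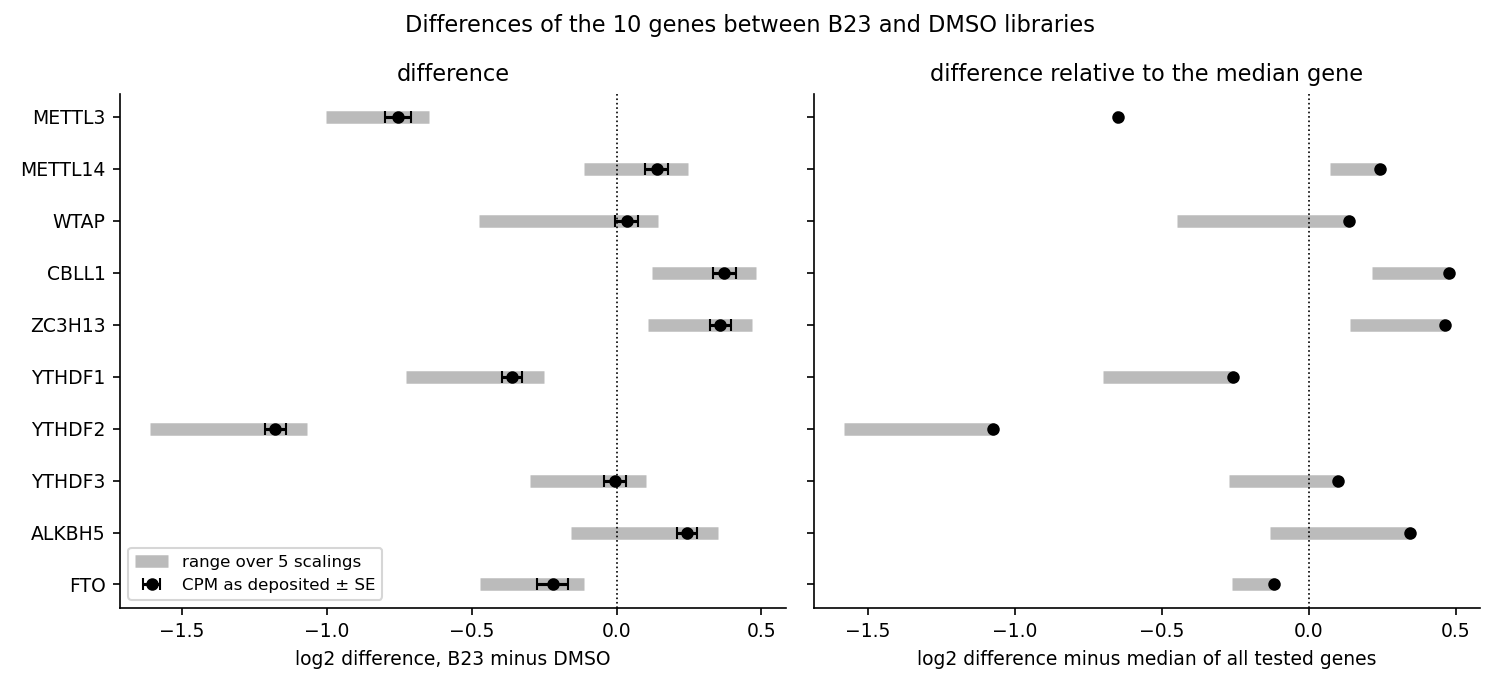
Log2 difference, B23 minus DMSO, of each of the 10 genes (left; point and bar, CPM as deposited with the SE of limma) and the same difference minus the median of all tested genes (right), with the range over the CPM as deposited and 4 other scalings in grey. METTL3, YTHDF1, YTHDF2 and FTO lie below 0 and CBLL1 and ZC3H13 above 0 throughout, whereas METTL14, WTAP, YTHDF3 and ALKBH5 cross 0 in the left panel.

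The cytoplasmic readers did not move as a group: YTHDF2 fell strongly, YTHDF1 fell less and YTHDF3 was not called. YTHDF2 had 106.1, 113.9 and 108.8 CPM in the B23 libraries, against 254.1, 250.5 and 240.9 CPM in the DMSO libraries. The groups were 127.0 CPM apart, more than the highest B23 value itself. The means were 109.6 ± 3.95 CPM in B23 and 248.5 ± 6.81 CPM in DMSO (SD, n = 3 each), and the log2 difference was -1.18 (SE 0.035, limma adjusted p = 7.80e-20). YTHDF2 lies on chromosome 1 from 28736621 to 28769775 on the plus strand.

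YTHDF1, often studied as a reader that favours translation of marked transcripts, had 98.9, 98.1 and 93.6 CPM in B23 and 129.1, 122.0 and 122.5 CPM in DMSO. All B23 libraries were below all DMSO libraries, by 23.2 CPM at the nearest. The log2 difference was -0.36 (SE 0.035, limma adjusted p = 9.99e-10), a 1.286-fold lower mean. It was larger with listed-gene total scaling (-0.61) and with quantile normalization (-0.73). YTHDF1 lies on chromosome 20 from 63195429 to 63216234 on the minus strand.

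YTHDF3, the third paralog, which has been described as acting together with the other two, had 82.3, 87.2 and 80.9 CPM in B23 and 85.8, 84.9 and 80.8 CPM in DMSO. The groups overlapped almost completely. Its log2 difference was -0.0060 with a 95% interval of -0.083 to 0.071 (limma adjusted p = 0.882). The sign of so small a value was not stable: it was 0.103 with median-of-ratios scaling and -0.30 with quantile normalization, both past the threshold there. YTHDF3 lies on chromosome 8 from 63168553 to 63212786 on the plus strand. All 3 reader genes have at most 5 or 6 exons in a transcript, and coding genes with 5 to 10 exons had a median log2 difference of -0.11 over 5128 tested genes.

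The makeup of the YTHDF readers differed between groups. CPM were divided by the length of all annotated exons of a gene in kilobases (GENCODE release 29), and the 3 readers were summed. This sum was 70.8, 73.4 and 69.7 CPM per kb in B23 and 118.9, 115.7 and 112.6 CPM per kb in DMSO. YTHDF2 made up 39.8% ± 0.883 of it in B23 and 55.6% ± 0.415 in DMSO (SD, n = 3 each). YTHDF1 made up 41.2% ± 0.997 in B23 and 32.6% ± 0.553 in DMSO, and YTHDF3 made up 19.0% ± 0.251 in B23 and 11.8% ± 0.143 in DMSO. With the length of the longest coding transcript instead, the share of YTHDF2 was 45.2% ± 0.887 in B23 and 61.2% ± 0.376 in DMSO, so it was lower in B23 with either length while the shares themselves moved.

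Within libraries, the CPM of YTHDF1 over that of YTHDF2 was 0.932, 0.861 and 0.860 in B23 and 0.508, 0.487 and 0.508 in DMSO. The ratio of YTHDF3 to YTHDF2 was 0.776, 0.766 and 0.744 in B23 and 0.338, 0.339 and 0.335 in DMSO. These log2 ratios differed by 0.82 and 1.18 between B23 and DMSO, against the larger SD within a group of 0.066 and 0.031. YTHDF1 over YTHDF3 differed by -0.36, with a larger SD of 0.048. Each of these comparisons gave the smallest exact permutation p of 0.10.

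**Figure D3:**
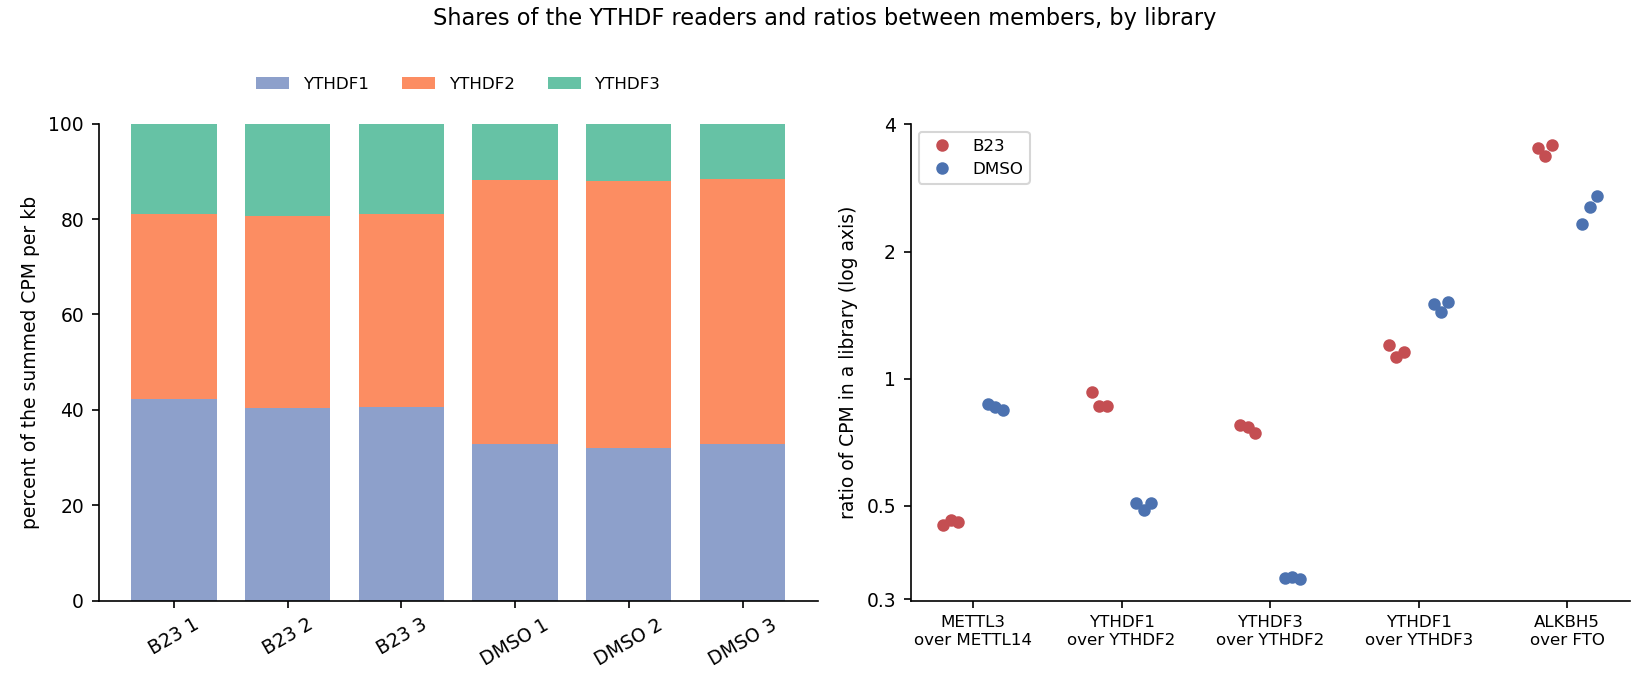
Left, share of each YTHDF gene in the summed CPM per kb of exons in every library, in percent; right, ratio of the CPM of 2 members within a library on a log axis, 1 point per library. YTHDF2 holds 38.8% to 40.5% in B23 libraries and 55.4% to 56.1% in DMSO libraries, and in none of the 5 ratios do the groups overlap.

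The erasers went in opposite directions by small amounts. ALKBH5, the nuclear m6A demethylase, had 133.3, 129.6 and 136.4 CPM in B23 and 113.9, 114.4 and 109.1 CPM in DMSO. The groups were 15.1 CPM apart. The means were 133.1 ± 3.43 CPM in B23 and 112.5 ± 2.93 CPM in DMSO (SD, n = 3 each). The log2 difference was 0.24 (SE 0.034, limma adjusted p = 5.15e-07), but it was -0.010 and not called with listed-gene total scaling and -0.16 with quantile normalization. ALKBH5 lies on chromosome 17 from 18183078 to 18209954 on the plus strand. With at most 4 exons in a transcript it belongs to a class of 1904 tested coding genes (2 to 4 exons) whose median log2 difference was -0.64, and any part of exon number in these differences was not tested.

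FTO, an eraser that also acts on the cap-adjacent mark m6Am, had 37.9, 38.4 and 38.2 CPM in B23 and 49.0, 44.8 and 40.2 CPM in DMSO. The B23 libraries were nearly equal while the DMSO libraries were spread, with coefficients of variation of 0.638% in B23 and 9.85% in DMSO. The lowest DMSO library stood only 1.866 CPM above the highest B23 library. The log2 difference was -0.22 (SE 0.053, limma adjusted p = 0.000683), and the call was just lost with median-of-ratios scaling (-0.11, limma adjusted p = 0.0525, the highest of the alternatives, whose lowest was 1.87e-07). With listed-gene total scaling it was -0.47. FTO lies on chromosome 16 from 53701692 to 54158512 on the plus strand and spans 456.8 kb. RPGRIP1L overlaps it on the opposite strand with 0 shared exonic bases.

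ALKBH5 over FTO was 3.52, 3.38 and 3.57 in B23 and 2.32, 2.55 and 2.71 in DMSO, as CPM over CPM. The log2 ratio differed by 0.47, against a larger SD within a group of 0.113, with the smallest exact permutation p of 0.10. With quantile normalization the difference was 0.13, close to that SD.

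Levels among the 10 genes were ordered per kb of exons. In B23 the order was ALKBH5 (41.7 ± 1.07 CPM per kb), WTAP, YTHDF1, YTHDF2, YTHDF3, CBLL1, ZC3H13, METTL14, METTL3 and FTO (1.79 ± 0.0114). The ranges of WTAP, YTHDF1 and YTHDF2 overlapped from neighbour to neighbour there, as did those of YTHDF3 and CBLL1. In DMSO the order was YTHDF2 (64.4 ± 1.77 CPM per kb), YTHDF1, ALKBH5, WTAP, YTHDF3, CBLL1, ZC3H13, METTL14, METTL3 and FTO (2.09 ± 0.206), and only METTL14 and METTL3 overlapped. YTHDF2 thus held the first place in DMSO, and in B23 it stood in a group of 3 overlapping genes below ALKBH5. With the length of the longest coding transcript YTHDF2 was again first in DMSO (85.0 ± 2.33 CPM per kb), while in B23 it stood at 37.5 ± 1.349, next below WTAP (51.9 ± 1.658) and ALKBH5 (48.4 ± 1.247), and overlapped no other gene. The order within the writer pair also depended on the length used: with the longest coding transcript METTL3 stood above METTL14 in both groups, at 10.4 ± 0.407 against 6.91 ± 0.174 CPM per kb in B23 and at 17.8 ± 0.328 against 6.27 ± 0.184 CPM per kb in DMSO. FTO was last in both groups with either length.

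Scaling changed the split of the calls. Median-of-ratios scaling moved the median log2 difference of all genes by 0.105, and listed-gene total scaling moved it by -0.24. Of the 10 genes, 6 were called higher and 3 lower with median-of-ratios scaling, and 5 higher and 4 lower with TMM scaling. With quantile normalization, and likewise with listed-gene total scaling, 2 were called higher and 7 lower. Listed-gene total scaling put 67.6% of all called genes on the lower side, against 55.3% with the CPM as deposited. Relative to the median gene, METTL3 stood at -0.65 to -0.66 in all 5 scalings, and YTHDF2 at -1.58 to -1.07. A factor per library shifts all genes nearly alike and drops out here. Of the 5 scalings only quantile normalization could therefore move these values much, and likeness among the others is no sign of stability. METTL14 stood at 0.074 to 0.24, CBLL1 at 0.22 to 0.48 and ZC3H13 at 0.14 to 0.47 above the median gene. ALKBH5 was 0.33 to 0.35 above the median gene with the deposited CPM and the 3 scalings by a factor, and -0.13 with quantile normalization.

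Other genes of RNA methylation and modification were taken from lists. The remaining adaptors of the writer complex were split: RBM15 rose 1.319-fold (111.1 ± 2.23 CPM in B23, 84.2 ± 0.862 CPM in DMSO), RBM15B fell and VIRMA was not called. The log2 difference of RBM15 was 0.40 (limma adjusted p = 5.88e-11), 0.15 with listed-gene total scaling, and 0.056 and not called with quantile normalization. RBM15 has at most 3 exons in a transcript, and coding genes with 2 to 4 exons had a median log2 difference of -0.64. RBM15 and RBM15B are RNA-binding paralogs that guide the complex to its sites. RBM15B was 2.63-fold lower, at 57.2 ± 1.497 CPM in B23 and 150.5 ± 5.82 CPM in DMSO (log2 difference -1.39, SE 0.036, limma adjusted p = 6.84e-21). It has a single exon, a class of 207 tested coding genes with a median log2 difference of -1.21, and its overlap with DCAF1 on the opposite strand covers 20.0% of its exonic length. VIRMA, the large scaffold, had 100.8 ± 2.98 CPM in B23 and 97.7 ± 1.438 CPM in DMSO (limma adjusted p = 0.221), with a log2 difference of 0.15 under median-of-ratios scaling and -0.31 under quantile normalization. The count of 1 higher and 1 lower among these 3 genes became 2 and 1 with median-of-ratios and TMM scaling, 0 and 2 with quantile normalization and 1 and 2 with listed-gene total scaling. Of all tested genes 39.6% were called higher and 49.0% lower with the CPM as deposited.

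Methyltransferase genes that act on adenosine outside the METTL3 complex, listed together with the activator gene TRMT112, were mostly lower. None of the 6 was called higher and 5 were called lower, where 49.0% of all genes were, with a median log2 difference of -0.47. TRMT112, the activator of METTL5 and of other methyltransferases, was 2.14-fold lower (38.6 ± 2.04 CPM in B23, 82.9 ± 2.17 CPM in DMSO), and it shares 17.5% of its exonic length with ESRRA on the opposite strand. TRMT112 has at most 4 exons in a transcript, and coding genes with 2 to 4 exons had a median log2 difference of -0.64. METTL4 was 1.531-fold lower, with a log2 difference of -0.60 that was -0.37 under quantile normalization, and METTL16, which marks U6 small nuclear RNA and the MAT2A transcript, was 1.483-fold lower, at 48.9 ± 1.233 CPM in B23 and 72.5 ± 3.90 CPM in DMSO. With quantile normalization 1 of the 6 was called higher and 3 lower, and with median-of-ratios scaling 1 higher and 5 lower.

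Readers outside the YTHDF group went mostly the other way from YTHDF1 and YTHDF2. Of 10 genes 8 were called higher and 1 lower, and the median log2 difference was 0.85, where 39.6% of all tested genes were called higher. All of these readers but RBMX (9 exons) have a transcript with 11 or more exons. Coding genes of that class had a median log2 difference of 0.13 over 5972 tested genes, and any part of exon number was not tested. In each of the 19 alternatives 8 of these genes were called higher. IGF2BP2, of a family described as stabilising marked transcripts, was 2.88-fold higher (210.1 ± 2.14 CPM in B23, 72.9 ± 3.72 CPM in DMSO). Its paralog IGF2BP1 was 2.02-fold higher, at 379.7 ± 2.84 CPM in B23 and 188.1 ± 3.51 CPM in DMSO, and HNRNPC, a nuclear RNA-binding protein, was 1.95-fold higher. The nuclear YTH reader YTHDC1 was 1.794-fold higher, at 191.4 ± 7.59 CPM in B23 and 106.7 ± 0.798 CPM in DMSO (log2 difference 0.84, SE 0.034, limma adjusted p = 4.20e-17). The helicase-containing YTH protein YTHDC2 was 1.824-fold higher (log2 difference 0.86, SE 0.033, limma adjusted p = 1.05e-17). IGF2BP3, named after its values were seen, was the gene that fell, with a log2 difference of -0.20, and with -0.45 under listed-gene total scaling and -0.096 under median-of-ratios scaling. Quantile normalization gave smaller log2 differences for IGF2BP1 (0.48), HNRNPC (0.57), YTHDC1 (0.40) and YTHDC2 (0.52).

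**Figure D4:**
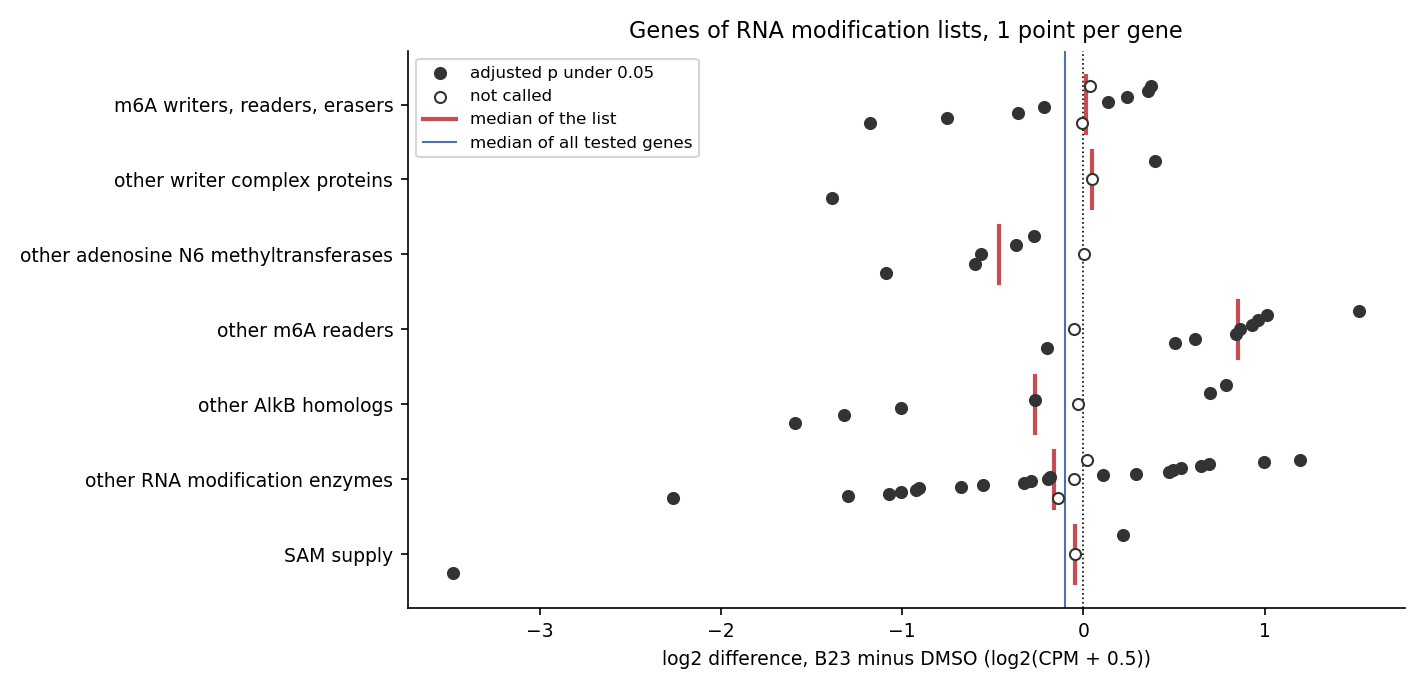
Log2 difference, B23 minus DMSO, for each gene of the 10 m6A genes and of 6 other lists (filled, adjusted p under 0.05; open, not called), with the median of each list in red and that of all tested genes in blue. The other m6A readers have a median of 0.85 and the other adenosine methyltransferases (with the activator TRMT112) one of -0.47, while the 10 genes have 0.014.

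The AlkB homologs beside ALKBH5 and FTO went both ways, with 2 of 7 higher, 4 lower and 1 not called (median log2 difference -0.27). Of all tested genes 88.6% were called, 39.6% higher and 49.0% lower, so 6 called among 7 in both directions is close to the background. ALKBH2, a DNA repair dioxygenase, was 3.12-fold lower, at 9.93 ± 0.174 CPM in B23 and 31.0 ± 2.23 CPM in DMSO. ALKBH4 was 2.57-fold lower and shares 25.3% of its exonic length with ORAI2 on the opposite strand, and the mitochondrial family member ALKBH7 was 2.06-fold lower. Their log2 differences were -1.59, -1.32 and -1.01, and these 3 were named because they changed most in the list. The homologs that rose, named after their values were seen, were ALKBH3 (log2 difference 0.78) and ALKBH1 (0.70, and 0.45 with listed-gene total scaling). Like ALKBH5, the genes ALKBH2, ALKBH4 and ALKBH7 belong to the class of coding genes with 2 to 4 exons, whose median log2 difference was -0.64. Any part of exon number in their falls was not tested.

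Enzymes of other RNA marks were likewise mixed. Of 24 genes 9 were called higher, 12 lower and 3 neither (median log2 difference -0.16), and with listed-gene total scaling 7 were higher and 16 lower. Of all tested genes 39.6% were called higher and 49.0% lower, with a median log2 difference of -0.10, so this mix is close to the background. The pseudouridine synthase genes TRUB2 and PUS3 were 4.95-fold and 2.53-fold lower, and PUS7 of the same enzyme class was 2.33-fold higher. PUS3 has at most 4 exons in a transcript, and coding genes with 2 to 4 exons had a median log2 difference of -0.64. TRUB2 stood at 13.4 ± 0.740 CPM in B23 and 66.2 ± 2.18 CPM in DMSO.

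The supply of S-adenosylmethionine, the methyl donor of the writers, was represented by 3 genes. MAT2A, which makes the donor and whose transcript is a substrate of METTL16, had a log2 difference of -3.48, with 46.6, 50.4 and 42.1 CPM in B23 and 515.2, 532.0 and 513.7 CPM in DMSO, and it overlaps GGCX on the opposite strand. Its regulatory subunit gene MAT2B was 1.165-fold higher with the CPM as deposited, and was not called with quantile normalization (log2 difference 0.0072) or with listed-gene total scaling (-0.033). AHCY, which removes the product S-adenosylhomocysteine, had 396.2 ± 26.3 CPM in B23 and 409.1 ± 17.2 CPM in DMSO and was not called (log2 difference -0.048, limma adjusted p = 0.305). Its direction and call depended on the scaling: it was 0.062 with median-of-ratios scaling, and was called lower with quantile normalization (-0.54) and with listed-gene total scaling (-0.30).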

How the data were processed

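The authors deposited 1 table of CPM, holding 15496 genes by symbol and 6 libraries. The submitters' processing notes list STAR 2.6.1d, then SAMtools, HTSeq, edgeR and the build hg38, without roles; the annotation, strand setting and gene filter used are not given there. All values were whole multiples of 1 read within 0.001 reads (100.0%), so reads were recovered for count tests. The divisors behind the CPM were not whole numbers (50816208.05 for B23 replicate 1, 63162121.97 for DMSO replicate 1). A scaling factor of unknown method may therefore be included in the CPM as deposited. Groups follow the titles of the samples. The 14792 genes reaching a mean of 1 CPM (704 did not) were compared as log2(CPM + 0.5) with limma 3.58.1 (R 4.3.3, trend and robust), two-sided, Benjamini-Hochberg over all tested genes; folds are ratios of mean CPM. The 0.5 added before taking log2 makes the changes of low genes look smaller. Ratios within libraries used CPM without pseudocount. Positions, exons and overlaps come from GENCODE release 29 on GRCh38, the assembly of hg38, which held all 15496 symbols; pseudogene copies of the members (4 annotated) had 0 entries in the table.

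The members and lists were chosen with earlier results of these data known. Named beside the members were up to 3 called genes per list with the largest change and at least 5 CPM, all genes of donor supply, and YTHDC1, YTHDC2, METTL16 and VIRMA. The settings varied were the pseudocount (0.1 and 2), the filter (none, or 5 CPM), the scaling (median-of-ratios, TMM, quantile, listed-gene total), plain empirical Bayes, a replicate block, a threshold of 0.01, edgeR 4.0.16 and DESeq2 1.42.0 on recovered reads, and leaving out each library. On simulated data for this comparison (14770 genes, 50 changed at each fold) 82% of the 1.25-fold changes were recovered, 100.0% of the 1.5-fold, 96% of the 2-fold and 98% of the 4-fold changes. Of the 202 calls there, 14 were false. The simulation changed only these seeded genes, in balanced directions and with no difference in scaling between the groups. Its rates therefore do not carry over to the real libraries, where 88.6% of tested genes were called and the choice of scaling matters.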

Additional observations from a re-analysis of the deposited data

How the results depend on the processing

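METTL3, CBLL1, ZC3H13, YTHDF1 and YTHDF2 kept direction and call under all 19 alternatives, as did the count of all changed genes within 1.5 times (10794 to 13425). Among the 10 genes 8 to 10 were called, and with edgeR and DESeq2 on recovered reads 9 and 10. The differences below are on the log2 scale, with the sign of B23 minus DMSO, and causes were not tested. With median-of-ratios scaling WTAP was at 0.144 and YTHDF3 at 0.103 (both called) and FTO at -0.112 (not called). With TMM scaling WTAP was at 0.115 (called) and YTHDF3 at 0.0738. With quantile normalization METTL14 was at 0.0464 (not called), WTAP at -0.476, YTHDF3 at -0.300 and ALKBH5 at -0.158 (all called). With listed-gene total scaling METTL14 was at -0.112, WTAP at -0.218 and YTHDF3 at -0.257 (all called) and ALKBH5 at -0.0101 (not called). edgeR on recovered reads gave WTAP 0.106 (called) and YTHDF3 0.0664, and DESeq2 gave 0.135 and 0.0960 (both called). Leaving out 1 library at a time gave -0.0061 to 0.0753 for WTAP and -0.0377 to 0.0159 for YTHDF3, and neither was called in any; without DMSO replicate 2 WTAP was at -0.0061, and YTHDF3 was above 0 without B23 replicate 1 or 3 or DMSO replicate 1 or 2 (0.00389, 0.0159, 0.0108 and 0.0036). FTO ranged from -0.29 to -0.15 without single libraries and stayed called. Libraries with the same replicate number did not deviate together (r of -0.070 to 0.026, against -0.079 to 0.157 for different numbers). No pairing by number was seen, but these values cannot tell how the samples were made. With the replicate block 8 of the 10 genes and 13106 of all genes were called, and METTL3 stayed at -0.75 and YTHDF2 at -1.18. No call of a member or count of a list changed under the block. The 5 ratios within libraries kept their sign with a pseudocount of 0.5 and without any 1 library. With quantile normalization, added after seeing the data, the ratios differed by -0.723 for METTL3 over METTL14, 0.882 for YTHDF1 over YTHDF2, 1.310 for YTHDF3 over YTHDF2, -0.428 for YTHDF1 over YTHDF3 and 0.131 for ALKBH5 over FTO. The counts of the other lists stayed within 1.5 times under all alternatives. Each member had at least 1005 reads per library, and counting error is only part of the spread between libraries.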
